A study of Mus musculus with 6 samples.

Results

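The IGHV5 family of the mouse is a group of heavy chain V genes of which 10 were found in the heavy chain (IgH) libraries. Described here are the 8 other than IGHV5-2 and IGHV5-4, out of 105 IGHV genes found: IGHV5-6, IGHV5-9, IGHV5-9-1, IGHV5-12, IGHV5-12-4, IGHV5-15, IGHV5-16 and IGHV5-17. A clonotype, a distinct nucleotide sequence of the third complementarity-determining region (CDR3) with its V and J gene, was counted as a member when the gene of its first V hit began with IGHV5- and was neither of those excluded. The members held 1356 of 7794 IgH clonotypes in the iB-μMT library and 619 of 6781 in the B6 library.

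The study asked whether progenitors made from embryonic stem cells can rebuild B cells in mice that have none. The iB-μMT mouse was a μMT recipient (B6.129S2-Ighmtm1Cgn/J, whose own B cells do not develop), 8 to 10 weeks old at transplantation by the general methods, irradiated with 5 Gy and kept on doxycycline. It received hematopoietic progenitors (iHPCs) from a C57BL/6 embryonic stem cell line with GFP at Hipp11 and doxycycline-inducible Runx1, Hoxa9 and Lhx2 at Rosa26, and its splenic naïve follicular (FO) B cells were sorted at week 4. The other library, labelled WT, came from the same population sorted from 1 C57BL/6 (B6) control mouse, whose age is not given in the sources used here. The engineered line, the irradiation, the doxycycline, the age of the B cell compartment and the individual mouse all differ between the libraries and cannot be told apart. The tables held 909806 and 1383617 reads, with a median of 96 and 184 reads per IgH clonotype, for iB-μMT and B6, respectively. With 1 library per group, no test between the mice was possible and no p-value is given. The 95% intervals are exact binomial (Clopper-Pearson) intervals over clonotypes and cover counting error only, and SDs are over clonotypes. The clonotype tables hold no surface or transcription markers, so the sorted cell type could not be checked. The constant region shows only the isotype. IGHM was the C gene of 1338 of the 1340 member clonotypes with a C gene in the iB-μMT library and of all 615 in the B6 library. The exceptions were an IGHV5-6 and an IGHV5-17 clonotype with IGHG2C, each of 1 read.

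A heavy chain variable region is built by joining a D to a J segment and then a V segment to the DJ product, with RAG1 and RAG2 cutting the DNA. Terminal deoxynucleotidyl transferase (TdT, the product of Dntt) adds nucleotides at both joins that no gene segment encodes, and little of it is active in fetal B cell development. IGHV5 genes lie near the D segments, interleaved with the IGHV2 (Q52) genes, while the large IGHV1 (J558) family lies farther away. D-proximal V genes, IGHV5 among them, are known to be used often in early precursors and in fetal and neonatal repertoires. The V segment brings its own first letters into CDR3, beginning at the conserved cysteine codon.

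In the RefSeq annotation of GRCm38.p6, all 8 members are V segments on chromosome 12. IGHV5-6 is the nearest to the D segments, at chr12:113625508-113625801, 98.7 kb from the closest annotated D segment. IGHV5-9 follows at chr12:113661771-113662228 (135.0 kb), IGHV5-12 at chr12:113702126-113702419 (175 kb), IGHV5-9-1 at chr12:113736113-113736406 (209 kb) and IGHV5-12-4 at chr12:113762251-113762544 (235 kb). IGHV5-15 lies at chr12:113826648-113826941 (299.8 kb), IGHV5-16 at chr12:113838528-113838821 (312 kb) and IGHV5-17 at chr12:113859149-113859442 (332 kb). The order of the numbers in the names is therefore not everywhere the order on the chromosome.

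To show how these rearrangements look, the CDR3 with most reads is given for each gene and mouse, 5′ to 3′ from the cysteine codon to the tryptophan codon. Capitals mark letters that MiXCR, the program with which the authors assembled the clonotypes, assigned to neither the V, the D nor the J segment.
IGHV5-6, iB-μMT mouse: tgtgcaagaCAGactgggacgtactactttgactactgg
IGHV5-6, B6 mouse: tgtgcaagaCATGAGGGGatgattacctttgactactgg
IGHV5-9, iB-μMT mouse: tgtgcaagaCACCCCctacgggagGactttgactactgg
IGHV5-9, B6 mouse: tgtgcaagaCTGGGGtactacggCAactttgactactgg
IGHV5-12, iB-μMT mouse: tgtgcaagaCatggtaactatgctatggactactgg
IGHV5-12, B6 mouse: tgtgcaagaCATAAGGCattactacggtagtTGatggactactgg
IGHV5-9-1, iB-μMT mouse: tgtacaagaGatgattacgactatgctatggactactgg
IGHV5-9-1, B6 mouse: tgtacaagaGaactgggGCttgactactgg
IGHV5-15, iB-μMT mouse: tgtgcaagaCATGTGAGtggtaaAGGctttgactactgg
IGHV5-15, B6 mouse: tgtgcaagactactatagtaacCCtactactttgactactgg
IGHV5-16, iB-μMT mouse: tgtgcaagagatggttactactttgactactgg
IGHV5-16, B6 mouse: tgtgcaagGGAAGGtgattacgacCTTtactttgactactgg
IGHV5-17, iB-μMT mouse: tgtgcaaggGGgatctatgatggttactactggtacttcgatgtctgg
IGHV5-17, B6 mouse: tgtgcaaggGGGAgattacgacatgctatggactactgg
The iB-μMT clonotype of IGHV5-16, with 442 reads, joined IGHD2-3 and IGHJ2 and held 0 inserted letters. Its counterpart in the B6 library, with 497 reads, held 9. The B6 clonotypes of IGHV5-12 (173 reads) and IGHV5-15 (198 reads) shown here carry a stop codon in CDR3. In 5 of the 7 genes the most frequent first letters were tgtgcaaga, which encode cysteine, alanine and arginine. In IGHV5-17 this stretch most often ended in g, still encoding arginine, and in IGHV5-9-1 it was tgtacaaga, which puts threonine in place of alanine. The tgtacaaga start was found in 94.9% of the 158 IGHV5-9-1 clonotypes of the iB-μMT library (95% interval 90.3 to 97.8%) and in 78.9% of the 90 of the B6 library (69.0 to 86.8%). MiXCR called the V end of this gene untrimmed in 96.2% and 78.9%. The share with the most frequent start was also higher in the iB-μMT library in IGHV5-6 and IGHV5-12. It was lower there in IGHV5-9, IGHV5-15, IGHV5-16 and IGHV5-17. In all of these other genes the intervals overlapped between the mice.

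The members together were used more in the iB-μMT library, but unevenly. They made up 17.4% of IgH clonotypes there (95% interval 16.6 to 18.3%) and 9.13% in the B6 library (8.45 to 9.84%), a ratio of 1.91. IGHV5-6 accounted for most of the difference, since without it the shares were 10.5% and 7.18%, a ratio of 1.47. IGHV5-17 was nearly equal in both mice, and without it the ratio was 2.40. For comparison, the ratio was 6.28 for IGHV5-2 (101 and 14 clonotypes) and 3.73 for IGHV5-4. It was 3.57 for the 9 IGHV2 genes together and 0.708 for the 86 IGHV genes outside both families.

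IGHV5-6 was the second most used IGHV gene of the iB-μMT library, with 535 clonotypes or 6.86% (95% interval 6.31 to 7.45%). In the B6 library it ranked 16th, with 132 clonotypes or 1.95% (1.63 to 2.30%), so the ratio was 3.53. IGHV5-12 had the largest ratio among the members, 4.01, from 129 clonotypes or 1.66% (1.38 to 1.96%) and 28 clonotypes or 0.413% (0.275 to 0.596%), respectively. These genes had the highest ratios among the members, and their intervals did not overlap.

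IGHV5-15, the least used of the 7 genes with at least 20 clonotypes in both libraries together, had 46 clonotypes or 0.59% (0.432 to 0.786%) against 18 or 0.265% (0.157 to 0.419%), a ratio of 2.22. IGHV5-16 had 150 clonotypes or 1.92% (1.63 to 2.25%) against 80 or 1.18% (0.937 to 1.47%), a ratio of 1.63. IGHV5-9-1 had 158 clonotypes or 2.03% (1.73 to 2.37%) against 90 or 1.33% (1.07 to 1.63%), a ratio of 1.53. In each of these the intervals did not overlap, although the ratios of IGHV5-16 and IGHV5-9-1 were below 2.

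IGHV5-9 had 78 clonotypes or 1.0% (0.792 to 1.25%) against 48 or 0.708% (0.522 to 0.937%), a ratio of 1.41 with overlapping intervals. IGHV5-17, the member farthest from the D segments, ranked 6th in both mice. It had 260 clonotypes or 3.34% (2.95 to 3.76%) against 222 or 3.27% (2.86 to 3.73%), a ratio of 1.02. The intervals of IGHV5-17 overlapped too. Overlap of intervals is not a test, and a difference in the use of IGHV5-9 or IGHV5-17 is neither shown nor excluded. IGHV5-12-4 had 0 of 7794 clonotypes in the iB-μMT library, which allows a share of up to 0.0385% when a count of 0 is read as up to 3 clonotypes (upper bound of the exact binomial interval 0.0473%). In the B6 library it had 1 clonotype of 1 read without a C gene, and its V alignment score of 70 compares with a median of 2116 over B6 member clonotypes.

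**Figure D1:**
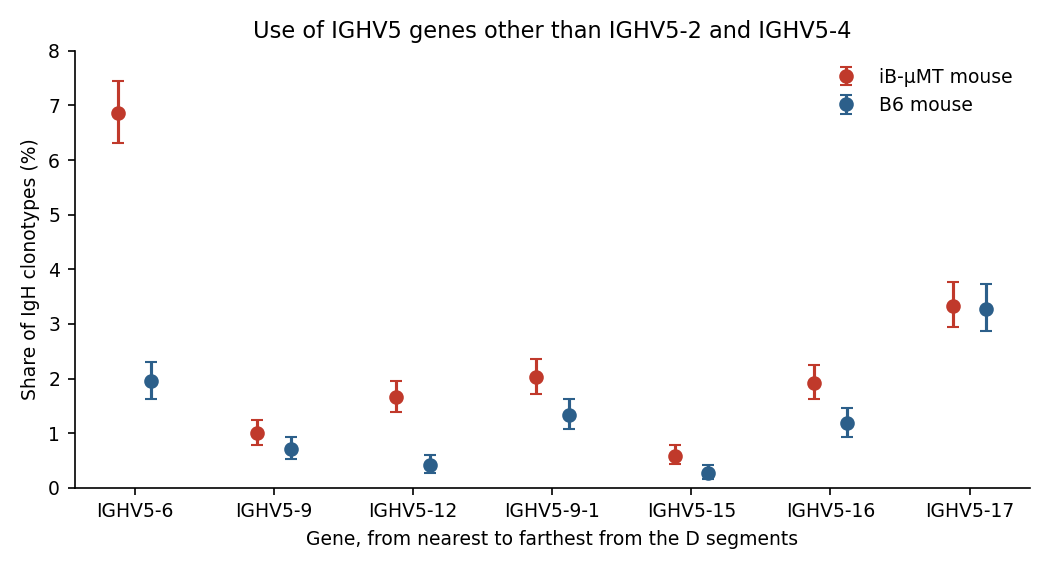
Share of IgH clonotypes (%) of each of the 7 member genes with at least 20 clonotypes, ordered from the nearest to the farthest from the D segments, in the iB-μMT library (red) and the B6 library (blue). Bars are exact binomial 95% intervals over clonotypes. IGHV5-6 stands at 6.86% against 1.95%, while the points of IGHV5-17 are at 3.34% and 3.27%.

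Of the 7 members compared, 3 (IGHV5-6, IGHV5-12 and IGHV5-15) were at least 2-fold higher in the iB-μMT library, against 13 of all 77 IGHV genes with at least 20 clonotypes (16.9%). The share was higher in the iB-μMT library for all 7, which held for 45.5% of the 77 genes. In 5 the intervals did not overlap, as in 23.4% of the 77. The median ratio was 1.63 over the members and 0.921 over the 77 genes.

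The order of use within the group also differed. In the iB-μMT library IGHV5-6 came first and IGHV5-17 second, with intervals apart from each other and from the next genes. IGHV5-9-1, IGHV5-16 and IGHV5-12 followed with overlapping intervals, and then IGHV5-9 and IGHV5-15, whose intervals nearly touched. In the B6 library IGHV5-17 came first and IGHV5-6 second. IGHV5-9-1 and IGHV5-16 overlapped there, IGHV5-16 and IGHV5-9 just touched, and IGHV5-9 overlapped with IGHV5-12, which overlapped with IGHV5-15. Among member clonotypes alone, IGHV5-6 made up 39.5% in the iB-μMT library (36.8 to 42.1%) and 21.3% in the B6 library (18.2 to 24.8%). IGHV5-17 made up 19.2% (17.1 to 21.4%) and 35.9% (32.1 to 39.8%), respectively.

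Position along the locus did not order the members by ratio. IGHV5-6, the nearest, had 3.53 and IGHV5-17, the farthest, had 1.02. Between them IGHV5-9 at 135.0 kb had 1.41, and IGHV5-12, farther away at 175 kb, had 4.01. IGHV5-15 at 299.8 kb had 2.22, more than IGHV5-9 and IGHV5-9-1, which lie nearer. Among the IGHV2 genes of this stretch with at least 20 clonotypes, IGHV2-4 at 126 kb had 0.921 (18 and 17 clonotypes). The ratios of the others fell with distance. IGHV2-2 at 61.5 kb had 5.37, IGHV2-3 at 84.4 kb had 4.54 and IGHV2-5 at 159 kb had 2.85. IGHV2-6 at 190 kb had 2.78 and IGHV2-9-1 at 243 kb had 2.18.

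**Figure D2:**
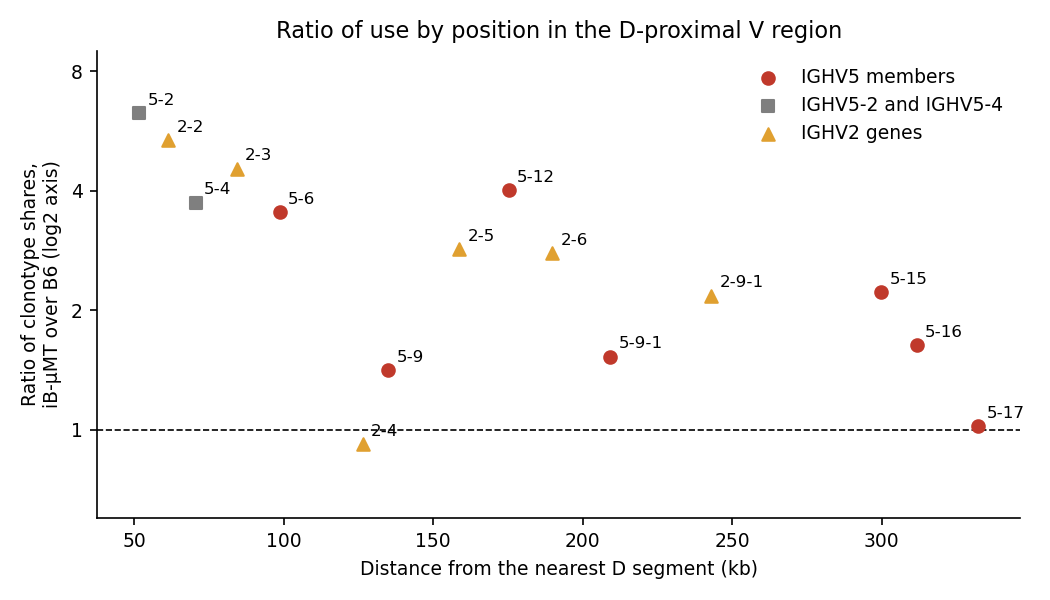
Ratio of the share of IgH clonotypes, iB-μMT over B6 (log2 axis), against the distance in kb from the nearest annotated D segment. Each point is a gene with at least 20 clonotypes in both libraries together, and the dashed line marks a ratio of 1. Among the members (red circles), IGHV5-12 at 175 kb has the highest ratio, 4.01, and IGHV5-17 at 332 kb the lowest, 1.02.

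Member clonotypes had few reads in both mice. The median was 59 reads per member clonotype in the iB-μMT library and 85 in the B6 library, against 119 and 203 for the IGHV genes outside the IGHV5 and IGHV2 families. Low medians were shared with IGHV5-4 (65 and 92 reads) and IGHV5-2 (67 and 96.5 reads). Outside the family, IGHV7-3 (52 and 68.5 reads) and IGHV6-6 (74 and 102 reads) had them too. Among the 62 IGHV genes that reached 20 clonotypes per library, the medians of IGHV5-6, IGHV5-9, IGHV5-9-1, IGHV5-12 and IGHV5-17 ranked from the 2nd to the 9th lowest in both mice. IGHV5-16 stood apart, with a median of 110 reads in the iB-μMT library and 184 in the B6 library. Its ranks were 23rd and 24th lowest.
As a result the members held less of the reads than of the clonotypes, 10.4% in the iB-μMT library and 4.70% in the B6 library. The ratio by reads was 2.21, and 4 of the 7 genes were at least 2-fold higher by reads, as were 20.8% of the 77 genes. The cause of the low read numbers was not tested. Among others, fewer cells per clonotype and less IgH RNA per cell cannot be told apart in these libraries. No single clonotype weighed on the totals, since the largest held 501 reads, or 0.531% of the member reads, in the iB-μMT library and 497, or 0.765%, in the B6 library.

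Junctions of member clonotypes held fewer inserted nucleotides in the iB-μMT library. Over the 1188 and 525 member clonotypes with a D gene, the mean was 4.58 (SD 3.17) in the iB-μMT library and 6.73 (SD 3.91) in the B6 library, a difference of -2.14. The distributions overlapped widely. The mean was lower in the iB-μMT library in all 6 members that had 20 or more such clonotypes per library, as in 98.3% of 58 IGHV genes. The median difference of the 6 and of the 58 was -2.04 in both cases, so the members did not stand out in this respect.

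IGHV5-6 had the largest difference among the members, with means of 4.63 (SD 3.10, 467 clonotypes) and 7.66 (SD 4.11, 116 clonotypes). IGHV5-12 had the smallest of the 6, with 4.72 (SD 2.84, 113 clonotypes) and 6.36 (SD 3.6, 25 clonotypes). IGHV5-17, whose use was nearly equal in the mice, had 3.91 (SD 3.02, 223 clonotypes) and 5.96 (SD 3.84, 181 clonotypes). Equal use of a gene thus went with a difference in its junctions.

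**Figure D3:**
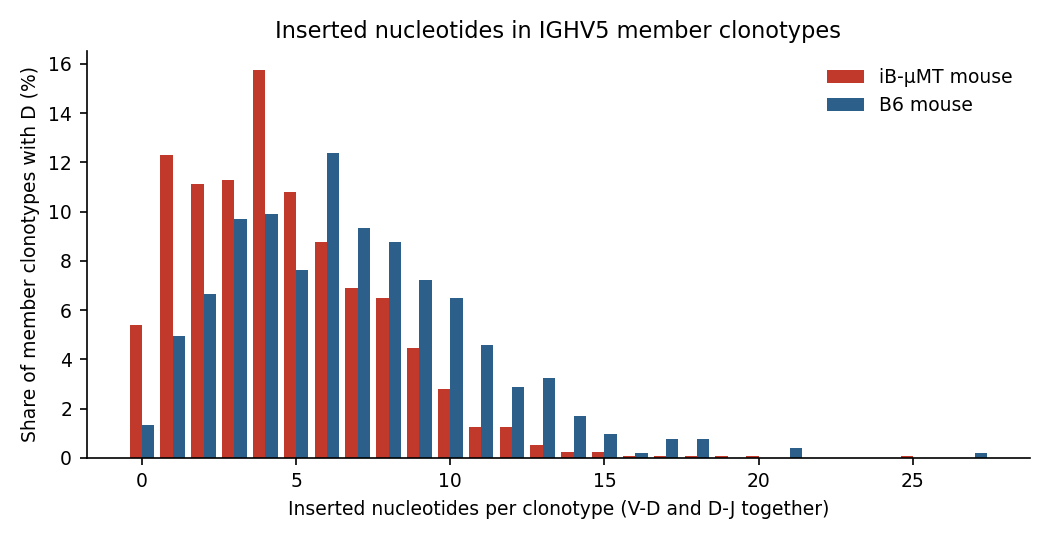
Share (%) of member clonotypes with a D gene by the number of inserted nucleotides at both joins together, in the iB-μMT library (red, 1188 clonotypes) and the B6 library (blue, 525 clonotypes). The iB-μMT bars lie further to the left, with a mean of 4.58 against 6.73, and the distributions overlap.

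At the D-J join, no letter was inserted in 53.2% of member clonotypes of the iB-μMT library (95% interval 50.3 to 56.1%) and in 29.7% of those of the B6 library (25.8 to 33.8%). The means were 1.19 (SD 1.80) and 2.32 (SD 2.49), lower in the iB-μMT library in all 6 members and in 100% of the 58 genes. The IGHV genes outside both families had 54.7% and 28.7% of clonotypes without an insertion at this join. At the V-D join the member means were 3.39 (SD 2.58) and 4.41 (SD 3.13), but no letter was inserted in 11.4% (9.61 to 13.3%) and 10.9% (8.33 to 13.8%), which did not differ by more than the counting error. In the IGHV genes outside both families these shares were 18.4% (17.2 to 19.6%) and 11.5% (10.6 to 12.4%).

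The letters just after the V end bear on this last value. Where MiXCR called the V end of a member untrimmed, its V part of CDR3 was 9 letters long in 1194 of 1195 clonotypes of the iB-μMT library and in all 521 of the B6 library. In IGHV5-6 the following letters, counted as inserted or as D, were CA in 60.9% of 471 untrimmed clonotypes of the iB-μMT library (56.4 to 65.4%) and 58.6% of 111 of the B6 library (48.8 to 67.8%). IGHV5-12 had CA in 58.8% and 45.8%, IGHV5-9 in 55.6% and 44.4%, and IGHV5-15 in 47.6% and 52.9%. IGHV5-9-1 had GA in 67.1% and 60.6%, and IGHV5-16 had GA in 62.9% and 48.1%. In IGHV5-17 the most frequent pair, AG, reached 16.8% and 17%.
Each of 6 members thus had its own frequent pair in at least 40% of untrimmed clonotypes in each mouse, whereas 13.4% of the 67 IGHV genes with at least 10 such clonotypes per library did. The genes behind the 13.4% were these 6, IGHV10-1, IGHV4-1 and IGHV5-4, which had GA in 76.3% of 926 and 73.5% of 211 untrimmed clonotypes, a larger share than in any member. IGHV2-6 had CA in 93.3% of 30 untrimmed clonotypes of the iB-μMT library and in all 9 of the B6 library. It fell short of the minimum of 10 and was not counted as having a pair. Whether these letters belong to the V genes was not tested, since no germline sequence of them was used here.

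Counting letters of that pair as V changed the share of junctions without any insertion. As deposited, the share was 5.39% of member clonotypes in the iB-μMT library (95% interval 4.17 to 6.83%) and 1.33% in the B6 library (0.538 to 2.73%), below the 9.86% (8.96 to 10.8%) and 3.0% (2.55 to 3.51%) of the IGHV genes outside both families. In an alternative chosen after the data were seen, inserted letters matching the pair were counted as V in untrimmed clonotypes of every gene that had one. A match of the first letter alone was counted too. The members then had 13.4% (11.5 to 15.5%) and 3.05% (1.75 to 4.90%). The genes outside both families then had 10.2% (9.24 to 11.1%) and 3.04% (2.59 to 3.56%). In the iB-μMT library the members thus moved from below the other genes to above them. In the B6 library the intervals overlapped under either count. The pairs were taken from these same clonotypes, and outside both families only IGHV10-1 and IGHV4-1 had one. Letters were therefore removed mainly from IGHV5 genes, and the change of place is partly built in. For the members, the mean number of inserted letters became 3.66 and 6.00 under this count, a difference of -2.33.

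CDR3 length followed the insertions only in part. The mean was 13.8 amino acids (SD 2.26) over member clonotypes of the iB-μMT library and 14.2 (SD 2.63) in the B6 library, a difference of -0.373. The difference was -0.167 with clonotypes weighted by reads, -0.172 without IGHV5-6 and -0.727 without IGHV5-17. The mean was lower in the iB-μMT library in 4 of the 6 members, against 75.9% of the 58 genes. IGHV5-6 differed most, with 13.8 (SD 2.25) and 15 (SD 2.76) amino acids. IGHV5-17 had 13.4 (SD 2.47) and 13.4 (SD 2.64), with equal means although the inserted letters differed by -2.05. IGHV5-9 had 14.1 (SD 2.30) and 14.0 (SD 2.36).

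The fourth residue of CDR3 set the members into groups, since it is read from the letters just described. Codons that begin with CA encode histidine or glutamine, and those that begin with GA encode aspartate or glutamate. In the iB-μMT library histidine or glutamine stood there in 55.3% of IGHV5-6 (51.0 to 59.6%), 48.7% of IGHV5-9 (37.2 to 60.3%), 54.3% of IGHV5-12 (45.3 to 63.1%) and 43.5% of IGHV5-15 clonotypes (28.9 to 58.9%). The B6 shares of these genes were 51.5%, 41.7%, 39.3% and 50.0%, with overlapping intervals for each gene. In IGHV5-9-1, IGHV5-16 and IGHV5-17 these residues stayed at or below 3.08% in both mice. The excluded IGHV5-2 had them in 73.3% of 101 iB-μMT and 50.0% of 14 B6 clonotypes. The IGHV genes outside both families had them in 4.49% and 4.50%.
An acidic residue stood there instead in 65.2% of IGHV5-9-1 (57.2 to 72.6%) and 58.7% of IGHV5-16 clonotypes (50.3 to 66.6%) of the iB-μMT library. The B6 shares were 55.6% (44.7 to 66.0%) and 47.5% (36.2 to 59.0%). The excluded IGHV5-4 had an acidic residue there in 71.2% of iB-μMT and 66.8% of B6 clonotypes. The IGHV genes outside both families had one in 19.2% and 16.6%. IGHV5-9-1 and IGHV5-16 had a more negative CDR3 than the other members. The mean net charge, lysine and arginine less aspartate and glutamate, was -0.893 (SD 1.0) for IGHV5-16 and -0.753 (SD 1.25) for IGHV5-9-1 in the iB-μMT library, against -0.189 (SD 1.04) for IGHV5-6. For IGHV5-4 it was -0.691 (SD 1.16) there. The grouping by gene was the same in both mice. Over all members, histidine or glutamine at this position made up 32.2% in the iB-μMT library (29.7 to 34.7%) and 18.1% in the B6 library (15.1 to 21.4%). This total also reflects the mix of genes. Of the genes with CA, IGHV5-6 and IGHV5-12 made up 39.5% and 9.51% of iB-μMT members but 21.3% and 4.52% of B6 members. IGHV5-15 made up 3.39% and 2.91%, and IGHV5-9 5.75% and 7.75%, respectively. Within each of these genes the intervals for these residues overlapped between the mice.

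**Figure D4:**
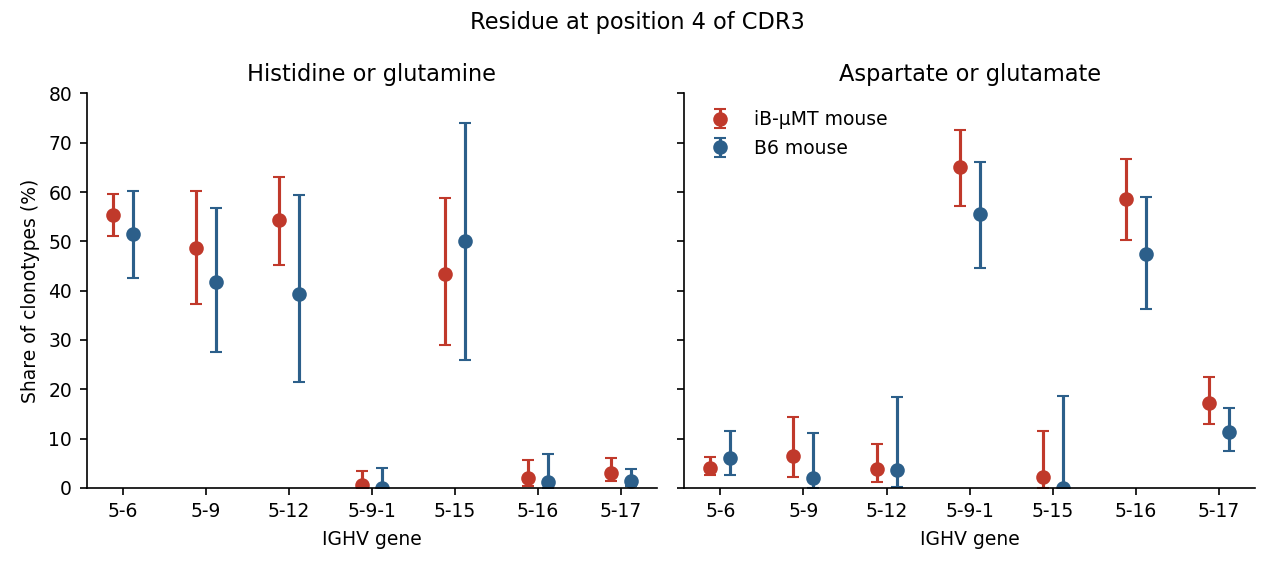
Share (%) of clonotypes of each member gene with histidine or glutamine (left) or with aspartate or glutamate (right) at position 4 of CDR3, in the iB-μMT library (red) and the B6 library (blue), with exact binomial 95% intervals. IGHV5-6, IGHV5-9, IGHV5-12 and IGHV5-15 are high on the left, and IGHV5-9-1 and IGHV5-16 are high on the right, in both mice.

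D gene use within the members differed between the mice as it did elsewhere. IGHD4-1 (DQ52), the D segment next to the J segments, was found in 18.4% of the 1188 iB-μMT member clonotypes with a D gene (16.2 to 20.7%) and in 8.95% of the 525 of the B6 library (6.65 to 11.7%). It was higher in the iB-μMT library in all 6 members, against 89.7% of the 58 genes. IGHD1-1 (DFL16.1), at the other end of the main D cluster, was found in 22.5% (20.1 to 25.0%) and 33.9% (29.9 to 38.1%). It was lower in the iB-μMT library in 5 of 6 members, against 87.9% of the 58 genes, and the exception was IGHV5-9 with 34.7% and 26.3%. IGHD2-3 was found in 17.3% (15.1 to 19.5%) and 10.7% (8.16 to 13.6%), and IGHD2-4 in 14.8% and 15.6%. The IGHV genes outside both families had 18.1% and 9.75% of IGHD4-1 and 23.4% and 34.5% of IGHD1-1.

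J gene use varied between the members. Over all members, IGHJ4 made up 32.3% of clonotypes in the iB-μMT library (29.8 to 34.9%) and 30.9% in the B6 library (27.2 to 34.7%). IGHJ2 made up 31.3% (28.9 to 33.9%) and 27.0% (23.5 to 30.7%), IGHJ3 21.8% and 23.1%, and IGHJ1 14.6% (12.8 to 16.6%) and 19.1% (16 to 22.4%). IGHV5-16 had the lowest IGHJ3 share of the 7 members in both mice. IGHJ3 was used by 6.00% of its clonotypes in the iB-μMT library (2.78 to 11.1%) and 10% in the B6 library (4.42 to 18.8%), whereas 30.7% (23.4 to 38.7%) and 31.3% (21.3 to 42.6%) used IGHJ1. Among the 62 genes its IGHJ3 share was the 2nd lowest and tied for the lowest, and its IGHJ1 share the highest and the 2nd highest, in the iB-μMT and B6 library, respectively. This pattern was singled out after its values were seen.
IGHV5-12 used IGHJ2 less than most members, in 17.8% (11.7 to 25.5%) and 7.14% (0.877 to 23.5%) of clonotypes. IGHV5-15 joined IGHJ4 in 52.2% of 46 clonotypes in the iB-μMT library (36.9 to 67.1%), against 33.3% of 18 in the B6 library (13.3 to 59.0%). Its IGHJ1 share was 30.4% (17.7 to 45.8%) and 22.2% (6.41 to 47.6%), respectively. Its IGHJ3 share was 10.9% (3.62 to 23.6%) and 16.7% (3.58 to 41.4%). In IGHJ1 and IGHJ3 it was thus close to IGHV5-16 in the iB-μMT library, but had too few B6 clonotypes to be ranked among the 62 genes.

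**Figure D5:**
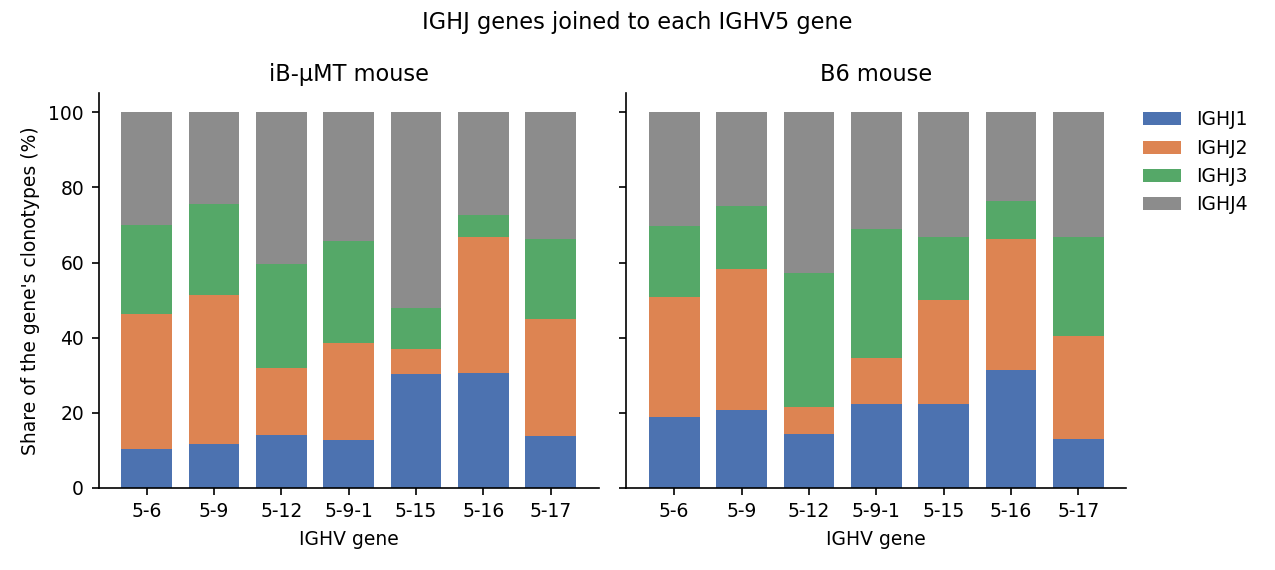
Share (%) of the clonotypes of each member gene joined to IGHJ1, IGHJ2, IGHJ3 and IGHJ4, stacked to 100, in the iB-μMT library (left) and the B6 library (right). The IGHJ3 part of IGHV5-16 is the smallest of its column in both panels, 6.00% and 10%, and its IGHJ1 part is 30.7% and 31.3%.

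Stop codons in CDR3 were rare among the members. They were found in 3 of 1356 member clonotypes of the iB-μMT library, or 0.221% (0.0456 to 0.645%), and in 13 of 619 of the B6 library, or 2.10% (1.12 to 3.56%). The IGHV genes outside both families had 0.79% (0.557 to 1.09%) and 2.19% (1.83 to 2.60%). In the B6 library 3 of the 18 IGHV5-15 clonotypes carried a stop, and the 13 had a median of 5 reads. Every CDR3 in both tables was in frame, so rearrangements out of frame could not be counted.

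Some member rearrangements were found in both mice. An identical CDR3 nucleotide sequence, with V and J gene also identical, occurred in both libraries for 8 member clonotypes, 0.59% of the members of the iB-μMT library and 1.29% of those of the B6 library. They are printed because a join found in both mice shows which letters recur, with the 3 that had more than 1 read in each library first. Capitals again mark letters of neither V, D nor J.
IGHV5-6 with IGHJ2: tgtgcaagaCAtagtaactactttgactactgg
IGHV5-6 with IGHJ2: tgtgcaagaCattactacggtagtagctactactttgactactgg
IGHV5-6 with IGHJ3: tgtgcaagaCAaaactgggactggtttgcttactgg
IGHV5-6 with IGHJ4: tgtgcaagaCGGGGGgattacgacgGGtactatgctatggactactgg
IGHV5-6 with IGHJ4: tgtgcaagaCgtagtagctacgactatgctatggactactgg
IGHV5-17 with IGHJ2: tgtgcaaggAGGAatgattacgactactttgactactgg
IGHV5-17 with IGHJ2: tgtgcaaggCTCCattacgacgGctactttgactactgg
IGHV5-17 with IGHJ1: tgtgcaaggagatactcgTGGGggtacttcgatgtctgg
The first 3 are all IGHV5-6 rearrangements. The IGHJ3 clonotype had 45 and 97 reads, and the IGHJ2 clonotypes had 140 and 56 and, for the longer sequence with IGHD1-1, 137 and 64. MiXCR found no D gene in the IGHJ3 clonotype and in the shorter IGHJ2 clonotype, and aligned their middle letters to J with mismatches. In all 3, the capitals are the C or CA that often follows the V end of this gene. The other 5 had 1 read in one library and between 30 and 171 reads in the other. The other IGHV genes shared 26 clonotypes, 0.404% of theirs in the iB-μMT library and 0.422% in the B6 library, smaller shares than those of the members. No interval was computed for these shares, and those of the members rest on only 8 clonotypes. Of the 26, 21 also had 1 read in one library, and 5 had more than 1 read in both. The cause of these single reads was not tested. Without all shared clonotypes the members held 17.4% and 9.06% of IgH clonotypes.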

How the data were processed

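Naïve FO B cells of 1 iB-μMT and 1 B6 mouse were processed by the authors by 5′ RACE and MiSeq sequencing, and clonotypes were assembled with MiXCR 3.0.13. The submitters' processing notes name bcl2fastq and mm10. The authors deposited for each clonotype a count of reads and that count divided by all reads of the library, a fraction. The counts were used as deposited, and the kappa and lambda chain tables were not used here. The first V hit gave the gene, and each clonotype was counted once. Inserted nucleotides were counted from the segment ends given by MiXCR, as the gaps on either side of D. A gene was compared with at least 20 clonotypes in both libraries together, or in each where stated, and differences of at least 2-fold were counted. The genes and lists were chosen with earlier results of these data known. Members with at least 20 clonotypes, the 4 most frequent D genes and all IGHJ genes were named. All 105 IGHV names matched the RefSeq table of GRCm38.p6. There were no replicates, so precision is set by the number of clonotypes, and reads carried no molecular identifiers, so they are not independent molecules. Simulated data covered only the ratios of gene shares and a difference between mean insertion counts. The reading of segment ends was checked on a made-up junction. The other measures were not tested on simulated data. SciPy 1.17.1 gave the intervals, with pandas 2.3.3 and NumPy 2.4.6 under Python 3.11.15. Alternatives were read minimums, equal read numbers, merging, ties, stop codons, shared clonotypes, weighting, thresholds and definitions of clonotype and D.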

Additional observations from a re-analysis of the deposited data

How the results depend on the processing

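Recomputed under 10 to 12 settings each were the share of clonotypes held by the members and the number of members at least 2-fold higher. The share of junctions without insertions, the mean number of inserted nucleotides and the mean CDR3 length were recomputed likewise, giving 56 values in all. Of the differences between the mice, 0 reversed direction, while the number of members is a count and could not reverse. D and J use, the fourth residue, charge, stop codons and the ratios of single genes were not recomputed. The difference in the share of clonotypes held by the members, 8.27 percentage points, was 5.67 with clonotypes weighted by reads, 3.35 without IGHV5-6 and 8.21 without IGHV5-17. The latter alternatives leave out a gene by construction. The number of members at least 2-fold higher in the iB-μMT mouse was 3, and 5 at 1.5-fold. The difference in the share of junctions without insertions, 4.05 percentage points, was 10.3 with letters of the frequent pair after the V end counted as V. The difference in CDR3 length was -0.167 amino acids weighted by reads, -0.172 without IGHV5-6 and -0.727 without IGHV5-17, and the cause of the first was not tested. The other 48 values stayed within the interval or within 1.5 times the value reported. The difference in inserted nucleotides lay between -2.39 and -1.91 in all its 12 alternatives. No paired analysis was possible because there was 1 library per group. B6 counts of 28 clonotypes for IGHV5-12 and 18 for IGHV5-15 limit the ratios of these genes.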

Other observations

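Outside the IGHV5 family, the 3 IGHV genes whose ratio of clonotype shares was closest to the ratio of 1.91 of the members together were IGHV13-2 (37 and 17 clonotypes, ratio 1.89), IGHV14-3 (99 and 50, ratio 1.72) and IGHV2-9-1 (75 and 30, ratio 2.18), a likeness over 2 libraries only. IGHV13-2 lies 831 kb and IGHV14-3 lies 533 kb from the nearest D segment, beyond every member, and IGHV2-9-1 lies among them at 243 kb. Of the amino acid sequences of CDR3, 13 were found among the members of both mice. Within the iB-μMT library 16 amino acid sequences belonged to more than 1 member clonotype, 4 of them to clonotypes of 2 different member genes, and within the B6 library 1 did. No CDR3 nucleotide sequence was listed under more than 1 V gene in either library. MiXCR listed further V hits for 23 iB-μMT and 2 B6 member clonotypes, or 1.70% and 0.323%, against 40.2% and 46.8% in the IGHV genes outside the IGHV5 and IGHV2 families.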
